A study of Mus musculus with 11 samples.

Results

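The Myc and Max network is a set of basic helix-loop-helix leucine zipper factors, and 10 of its genes (Myc, Mycl, Mycn, Max, Mxd1, Mxd4, Mxi1, Mnt, Mga and Mlx) are described here, of 21887 protein-coding genes in the annotation. They were chosen by name and not by their signal, although earlier results of these data were known at the time. For each gene, all peaks within the gene body plus 100 kb on each side (GRCm38, mm10) were taken from 11 peak lists.

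The series is ChIP-seq of mouse stomach glands, with 8 libraries for acetylation of histone H3 lysine 27 (H3K27ac, found at active promoters and at active enhancers) and 3 for trimethylation of lysine 4 (H3K4me3, a mark of promoters). The H3K27ac libraries come from 4 genotypes with 2 libraries each. Wild type glands have no engineered allele in their label. NICD glands were Atp4bCre; Rosa26NICD, so that Cre driven from a parietal cell gene switched on the active Notch intracellular domain, and the labels call this group the control. The 1-allele glands were Atp4bCre; Rosa26NICD; Arid1aflox/+ and the 2-allele glands Atp4bCre; Rosa26NICD; Arid1aflox/flox, so both kept the Cre and the NICD allele and differed from NICD in floxed Arid1a, a subunit gene of the BAF chromatin remodeller. The H3K4me3 libraries are 1 wild type, 1 NICD, and 1 library of NICD glands with floxed Arid1a. The title of the last says Het while its genotype field says flox/flox. Its number of floxed alleles is therefore uncertain, and it is called Arid1a-floxed. Age was not given in the sources used here. The epithelial pellets were pooled until enough tissue was at hand, so a library is a pool, and any p-value measures only the spread between these libraries.

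Myc, Mycl and Mycn bind DNA as dimers with Max at the E-box and activate genes of growth and proliferation. Mxd1, Mxd4, Mxi1 and Mnt compete for Max and recruit co-repressors to the same sites, Mga is a large Max-binding repressor with a T-box domain, and Mlx is a Max-like partner that also dimerises with glucose-responsive factors and some Mxd proteins. In the stomach, Myc is known as a gene of proliferating progenitors and is often amplified in gastric cancer.

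The E-box CACGTG, which reads the same on both strands, was searched in RefSeq promoters (GRCm38.p6, 250 bases before to 50 after each start). The table held 11 promoters of 9 of the 10 genes, with no entry for Myc. The E-box was present in 4 of these 11 promoters, each of a different gene, and in 7.15% of all 32851 promoters. The word holds a CpG, and the members' promoters held 11 to 42 CpG in the 250 bases before the start, against a median of 6 over all promoters. The part of CpG content in the E-box count was not tested. The 4 matches are shown with 20 bases on each side because they place the network's own binding word at the starts of its own members, and the E-box is in capitals. Positions count from the start base as 0.

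Max, chr12:76962226-76962271, minus strand, E-box at -3 to 2: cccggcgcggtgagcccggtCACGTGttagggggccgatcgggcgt
Mxd4, chr5:34187904-34187949, minus strand, E-box at -219 to -214: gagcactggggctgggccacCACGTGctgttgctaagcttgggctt
Mnt, chr11:74830781-74830826, plus strand, E-box at -123 to -118: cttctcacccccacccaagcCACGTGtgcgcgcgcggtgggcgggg
Mlx, chr11:101087230-101087275, plus strand, E-box at -40 to -35: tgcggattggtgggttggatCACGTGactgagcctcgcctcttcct

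The Rbpj word GTGGGAA, which the DNA-binding partner of NICD recognises, was found on either strand in 0 of the 11 promoters of the 9 genes and in 6.38% of all promoters. A match describes letters in this window and not a bound site, and a missing match says only that these letters are not there. The 250 bases before the start are also shown for the 2 genes at the extremes of the promoter data described below, Mlx (called in all 8 H3K27ac libraries) and Mxi1 (called in 0), with every CpG in capitals.

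Mlx, chr11:101087040-101087289, plus strand: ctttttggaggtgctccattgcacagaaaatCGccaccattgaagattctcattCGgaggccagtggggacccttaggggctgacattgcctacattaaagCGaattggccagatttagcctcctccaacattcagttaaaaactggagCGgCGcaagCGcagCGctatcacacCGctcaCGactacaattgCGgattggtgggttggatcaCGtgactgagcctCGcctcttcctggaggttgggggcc
Mxi1, first start, chr19:53310256-53310505, plus strand: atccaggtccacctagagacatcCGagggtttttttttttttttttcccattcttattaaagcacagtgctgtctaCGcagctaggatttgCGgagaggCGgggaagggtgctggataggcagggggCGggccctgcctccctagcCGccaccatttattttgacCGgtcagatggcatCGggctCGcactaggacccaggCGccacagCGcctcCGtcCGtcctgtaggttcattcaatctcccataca

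The stretches hold 12 and 13 CpG, against a median of 6 over all promoters of the table. The other starts of Mxi1 have 13 and 42 CpG in the same 250 bases.

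The lists differ greatly in length, and every count below has to be read beside that. The H3K27ac lists held 20590 and 18360 peaks for wild type, 41405 and 25442 for NICD, 5165 and 7602 for 1-allele, and 15362 and 14373 for 2-allele glands, and the H3K4me3 lists 17558 (wild type), 39420 (NICD) and 5175 (Arid1a-floxed). Tags left after filtering ranged from 7955591 to 20809769 in the 9 lists that state them. The second NICD library was the shallowest and had a redundant rate of 0.52. List length did not follow depth, since 1-allele replicate 1 had 16619226 tags and the shortest H3K27ac list. Of 5 markers of gland epithelium, 4 or 5 had a promoter peak in each wild type, NICD and 2-allele H3K27ac library, and 2 and 1 in the 1-allele libraries. Of 6 parietal markers, 4 and 3 were called in wild type, 0 in NICD and in 2-allele glands, and 1 and 0 in 1-allele glands; Atp4b, Esrrg and Hrh2 had a peak in each wild type and in no NICD library. The other marker lists reached at most 3 of 4 (pit), 3 of 4 (neck and chief), 1 of 4 (fibroblast), 0 of 3 (endothelial) and 1 of 3 (smooth muscle) in any H3K27ac library. Ptprc, which encodes the leukocyte antigen CD45, was called in both NICD libraries and in 2-allele replicate 1. In bulk glands, fewer cells of a type and less signal per cell cannot be told apart, and the part of cell makeup, depth or list length in the results below was not tested.

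Promoter peaks were those lying 1 kb or less from a gene start. In wild type 7 and 8 of the 10 genes had one for H3K27ac, against 44.8% and 42.6% of all genes. In NICD 9 and 8 had one, against 54.3% and 48.9%. In 1-allele glands 2 and 2 had one, against 17.2% and 27.1%, and in 2-allele glands 7 and 9, against 44.4% and 42.7%. The network's promoters were therefore called more often than the average gene's in the 6 wild type, NICD and 2-allele libraries, and close to the average gene's in the 1-allele libraries. H3K4me3 was called at the promoters of 10 of 10 genes in wild type (49.9% of all genes) and in NICD (65.3%), and of 3, Mycl, Max and Mnt, in the Arid1a-floxed library (20.7%). For Myc, as for 2581 genes in all, the start was itself placed at the gene end with H3K4me3 in these lists. An H3K4me3 call there in at least 1 library was thus fixed in advance.

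**Figure D1:**
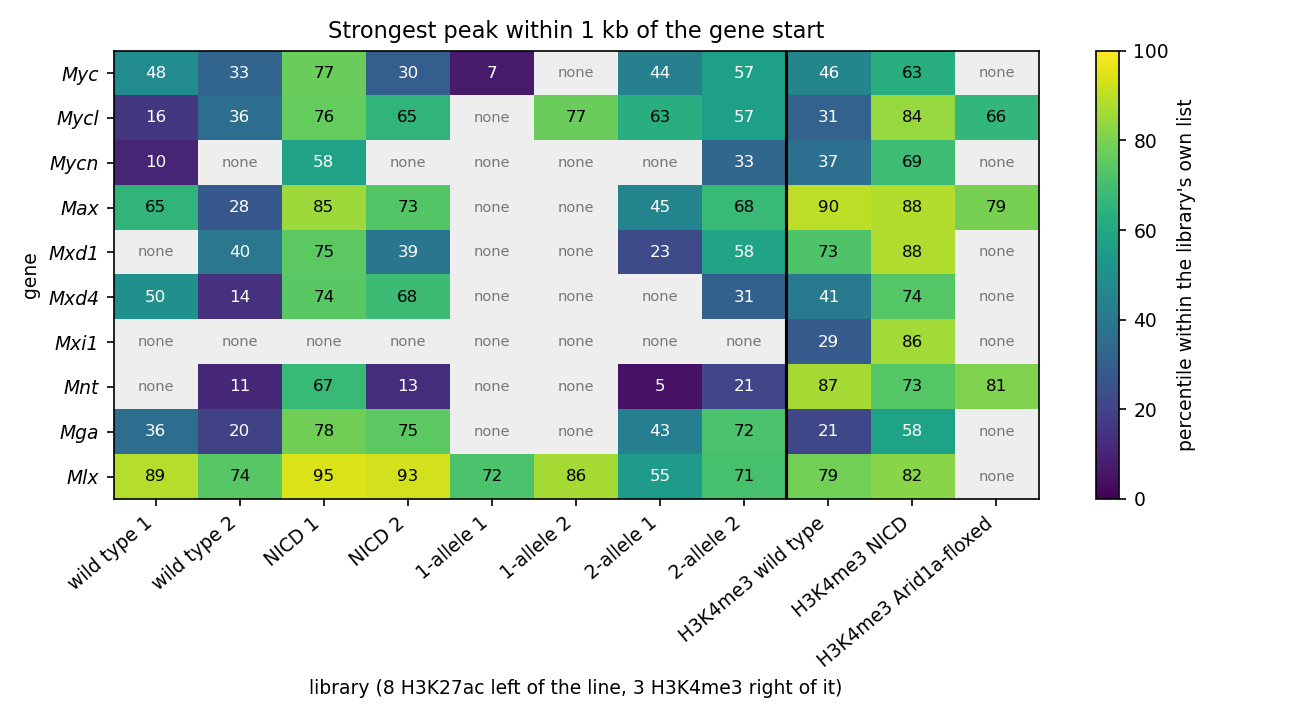
Percentile, within each library's own list, of the strongest peak within 1 kb of the start of each network gene (rows) in the 8 H3K27ac and 3 H3K4me3 libraries (columns); grey cells marked none had no peak. The 1-allele columns are nearly empty, Mlx is filled across all 8 H3K27ac columns, and Mxi1 is empty in all 8.

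Peak strength is given as the percentile of a peak within its own list by the authors' MACS score (−log10 p), where 100 is the strongest peak of that list. The 2-allele lists carry no scores, and file order was used instead: in their first 10% of peaks 93.7% and 92.8% overlapped a peak of 1-allele replicate 2, in the last 10% 8.72% and 11.3%. Percentiles place a peak in its own list and show no change between lists of different length. For scale, the median strongest promoter peak of all called genes lay at the 71.1 and 69.6 percentile in wild type, 84.0 and 75.8 in NICD, 52.1 and 55.4 in 1-allele and 67.0 and 65.7 in 2-allele libraries.

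Among the activators, Myc was called in 7 of 8 H3K27ac libraries. Its promoter peak lay at percentile 48.1 and 32.8 in wild type, 77.2 and 29.7 in NICD, 43.6 and 56.7 in 2-allele glands, and 7.32 in 1-allele replicate 1, with no peak in 1-allele replicate 2. These values stand below the median of all called promoters in every library that called Myc. The rank depended on the score: the mean over the 5 scored libraries was 39.0 by −log10 p, 16.2 by fold enrichment and 66.2 by pileup, that is, it ranked higher by its height than by its ratio to the local background. In wild type replicate 1, for instance, its pileup was 23 and its fold enrichment 4.12, and in NICD replicate 1 they were 64 and 4.40. The summit fell 337 to 431 bases after the start in the 5 scored libraries. H3K4me3 was called there in wild type and NICD, at percentile 45.5 and 62.6, and not in the Arid1a-floxed library.

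Mycl, first known from lung cancer, was also called in 7 of 8 libraries, the missing one being 1-allele replicate 1. Its percentiles were 16.1 and 36.3 in wild type, 76.3 and 65.4 in NICD, 77.2 in 1-allele replicate 2, and 62.6 and 56.5 in 2-allele glands. Both wild type peaks thus stood in the lower part of their lists. The summit lay at -41 to -28 bases from the start in both NICD libraries and 1-allele replicate 2, and at 123 and 500 bases in wild type. Mycl kept an H3K4me3 peak in all 3 libraries, at percentile 31.5 in wild type, 84.5 in NICD and 66.2 in the Arid1a-floxed library. Mycn, the form best known from the nervous system, was called only in wild type replicate 1, NICD replicate 1 and 2-allele replicate 2, at percentile 10.5, 57.8 and 33.1. No group called it in both libraries, although H3K4me3 was called there in wild type (36.6) and NICD (69.1).

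Max, the shared partner, was called in all 6 wild type, NICD and 2-allele libraries and in neither 1-allele library. Its percentiles were 65.4 and 27.6 in wild type, 85.3 and 73.3 in NICD, and 44.9 and 67.7 in 2-allele glands. For H3K4me3 it was the strongest of the 10 in wild type (89.9) and NICD (88.3), and it was one of the 3 still called in the Arid1a-floxed library (79.3). Max therefore had an H3K4me3 peak in all 3 libraries for that mark, while its H3K27ac peak was missing from both 1-allele libraries.

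Of the repressors, Mxd1, induced as cells leave the cycle, was called in wild type replicate 2 (39.6), both NICD (74.9 and 39.2) and both 2-allele libraries (22.9 and 58.5). Mxd4, a related repressor, was called in both wild type (50.0 and 14.2), both NICD (74.5 and 68.4) and 2-allele replicate 2 (31.2), where the peak centre lay at -602 bases from the start, and not at 213 to 321 bases as in the other 4. Mnt, the broadly expressed antagonist of Myc, was called in wild type replicate 2 (10.98), both NICD (67.4 and 13.1) and both 2-allele libraries (4.78 and 20.8). In 2-allele replicate 2 the Mnt peak was centred at -856 bases from the start, and in the other 4 at 366 to 702 bases. All 3 genes were missing from both 1-allele libraries. For H3K27ac, Mnt lay below the median of all called genes in each library that called it. Ranked by pileup, it stood at 56.0 in wild type replicate 2 and at 88.0 and 65.5 in NICD. For H3K4me3 it stood at 86.5, 73.4 and 80.5 in wild type, NICD and the Arid1a-floxed library, beside medians of all called genes of 67.4, 82.2 and 48.0. It was thus above the median in wild type and the Arid1a-floxed library and below it in NICD. Mnt was the strongest of the 3 genes called in the Arid1a-floxed library.

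Mxi1, an Mxd family repressor with 3 annotated starts, had no H3K27ac peak within 1 kb of any of them in the 8 libraries. H3K4me3 was called at the first and the last start in wild type, at percentile 28.5 for its strongest peak, and in NICD, at 86.1. The nearest shared H3K27ac region lay inside the gene 2.8 kb past the first start (chr19:53312587-53313969) and was called in 7 of 8 libraries, all but 1-allele replicate 2. Its percentiles there were 70.7 and 90.5 in wild type, 76.6 and 66.8 in NICD, 28.7 in 1-allele replicate 1, and 49.8 and 56.5 in 2-allele glands. H3K4me3 overlapped it in wild type and NICD. The region spans 1383 bases, and its NICD peaks began nearer the start, so a promoter window of 2.5 kb called Mxi1 in both NICD libraries and in no other. Add3 and Smndc1, the protein-coding genes on both sides of Mxi1, were called at the promoter in all 8 libraries.

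Mga was called in both wild type (36.1 and 19.9), both NICD (78.4 and 74.9) and both 2-allele libraries (43.0 and 71.6), and in neither 1-allele library at the start used. A further region at the 5′ end of the annotated gene body, at -24.3 kb from that start (chr2:119872481-119873462), was called in 7 libraries including 1-allele replicate 1, with H3K4me3 in wild type and NICD. Mga thus had acetylation at both places in 6 libraries, and in 1-allele replicate 1 only at the outer one. Counting either gene end as the start gave Mga a promoter peak in 1-allele replicate 1.

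Mlx was the one member called in all 8 libraries. Its percentiles were 88.9 and 74.0 in wild type, 94.5 and 93.0 in NICD, 71.8 and 86.4 in 1-allele glands, and 55.0 and 70.8 in 2-allele glands. It was the strongest of the members called in all 6 scored H3K27ac libraries, whereas Mycl led in 2-allele replicate 1 (62.6) and Mga in 2-allele replicate 2 (71.6). The peak was 360 to 552 bases wide with its summit 198 to 325 bases after the start. A position taken as a start of Coasy, a coenzyme A synthesis gene, lies within 2 kb, and a promoter peak of Mlx also lay within 1 kb of it. Of the ends of the Coasy gene body (chr11:101082565-101086619), only that at 101086619 lies so near. For genes outside the promoter table a gene end could be taken as the start, so this position may not be a true start. Whether the region belongs to Mlx alone was not tested. H3K4me3 was called there in wild type (78.6) and NICD (82.3) but not in the Arid1a-floxed library. Max and Mnt had an H3K4me3 peak in that library and no H3K27ac peak in 1-allele glands. In both 2-allele libraries, Max, Mnt and Mlx all had an H3K27ac promoter peak. Since the number of floxed alleles of the H3K4me3 library is uncertain, the marks cannot be matched by genotype here.

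In the comparisons, a gene or site counts for one group over another when each library of the first and no library of the second had the peak. With 2 libraries against 2, an exact permutation test cannot go below p = 0.3333, so counts are given beside those of all genes and no test is made. The NICD libraries are shared by 3 of the comparisons.

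For the effect of active Notch, 0 of 10 members counted for NICD over wild type (3.8% of all genes), and 0 for wild type over NICD (0.128%). The promoters of 6 members, Myc, Mycl, Max, Mxd4, Mga and Mlx, were called in all 4 of these libraries. Leaving out wild type replicate 2 gave 2 members, Mxd1 and Mnt (5.97% of all genes), and a promoter window of 2.5 kb gave 1, Mxi1 (3.95%).

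For 1 floxed Arid1a allele, 5 members, Max, Mxd1, Mxd4, Mnt and Mga, counted for NICD over 1-allele (19.1% of all genes), and 0 for the reverse (0.00457%). Of the other 5, Mycn and Mxi1 had no peak in either 1-allele library, Myc had a peak in replicate 1 (percentile 7.32), Mycl in replicate 2 and Mlx in both. With every list shortened to its 5165 strongest peaks the count was 0 (2.33% of all genes), because none of those 5 genes was then called in NICD either.

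For 2 floxed alleles, 0 of 10 counted for NICD over 2-allele (3.71%), and 0 for the reverse (0.0228%). Mxd4 was the nearest, called in both NICD and 1 of the 2-allele libraries. That 2-allele peak was centred at -602 bases from the start, while the strongest NICD peaks had their summits at 312 and 213 bases. Without 2-allele replicate 2 the count was 1 (5.34% of all genes). Compared directly, 4 members, Max, Mxd1, Mnt and Mga, counted for 2-allele over 1-allele (12.2% of all genes), and 0 for the reverse (0.0366%). The Mnt peaks of the 2-allele libraries lay at different places, as given above. The count was 0 in lists of equal length (2.81% of all genes). In such lists, Mlx was called in 7 of 8 libraries, Myc in 1-allele replicate 1, Mycl in 1-allele replicate 2, and Max and Mga in 2-allele replicate 2, with no other call.

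Over the whole windows, peaks were most frequent in NICD. The 10 windows held 61 and 56 H3K27ac peaks in wild type, 130 and 80 in NICD, 10 and 11 in 1-allele and 48 and 43 in 2-allele libraries. Per 10000 peaks of each list, the mean window held 2.96 and 3.05 peaks in wild type, 3.14 and 3.14 in NICD, 1.94 and 1.45 in 1-allele and 3.12 and 2.99 in 2-allele glands. The mean over all genes was 2.13 and 2.14, 1.92 and 2.11, 1.98 and 2.09, and 2.29 and 2.29 in the same order. Once list length was divided out, the network's windows were richer in peaks than the average gene's in 6 libraries and not in the 1-allele libraries. Windows of neighbouring genes overlap, so genes are not independent here.

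**Figure D2:**
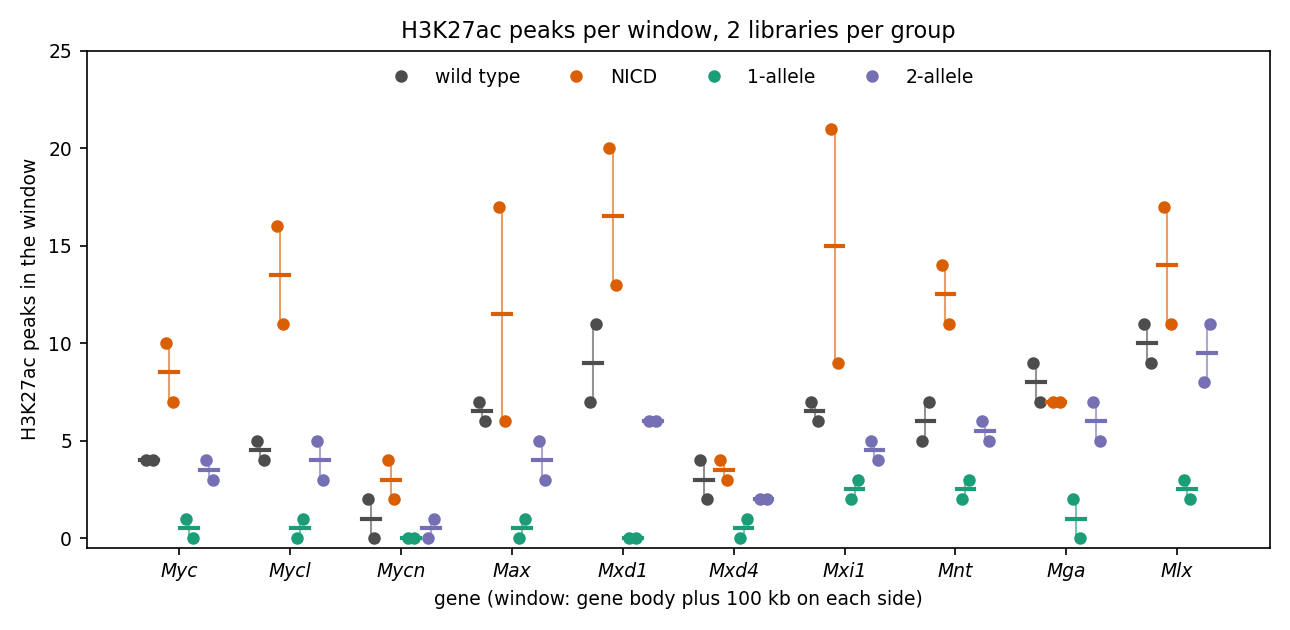
Number of H3K27ac peaks in the gene body plus 100 kb on each side for each network gene, with 1 point per library, a short bar at the mean of the 2 libraries of a group and a thin line between them. The NICD points are highest for 7 of the 10 genes with both libraries at or above every other group, and the 1-allele points lie between 0 and 3 throughout.

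The window of Myc held 4 and 4 peaks in wild type, 10 and 7 in NICD, 1 and 0 in 1-allele and 4 and 3 in 2-allele libraries. Both NICD libraries were above all others, and both 1-allele libraries below. Mycl had 5 and 4, 16 and 11, 0 and 1, and 5 and 3 peaks in the same order, with the same separation. Mycn had at most 4 peaks in any library, with overlapping groups.

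Among the others, Mxd1 had 7 and 11 peaks in wild type, 20 and 13 in NICD, 0 and 0 in 1-allele and 6 and 6 in 2-allele libraries, so that its 1-allele windows were empty. Mxi1 had 7 and 6, 21 and 9, 2 and 3, and 5 and 4, and Mnt 5 and 7, 14 and 11, 2 and 3, and 6 and 5. Max had 17 and 6 in NICD, where replicate 2 was no higher than wild type (7 and 6). Mga was flat between wild type (9 and 7) and NICD (7 and 7), and low only in 1-allele glands (2 and 0). Mlx, in the most gene-dense window with 12 other protein-coding genes, had 11 and 9, 17 and 11, 3 and 2, and 8 and 11. Mxd4 had 2 to 4 peaks in each wild type, NICD and 2-allele library and 0 and 1 in 1-allele glands.

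An exact permutation test over all 105 ways to pair the 8 libraries, run for every gene and adjusted by Benjamini-Hochberg over 21887 genes, gave 0 members with adjusted p under 0.05 and 0% of all genes. The smallest adjusted p, 0.0964, was shared by Myc, Mycl, Mxd1, Mxi1 and Mnt, and the smallest exact p the design allows is 0.00952. Unadjusted, these 5 members were under 0.05 (exact permutation p = 0.0286 for Myc, Mycl and Mnt and 0.00952 for Mxd1 and Mxi1), against 35.6% of all genes. Counting covered base pairs instead of peaks gave 5 members under an adjusted 0.05, Myc, Mycl, Mxd4, Mxi1 and Mnt, beside 42.5% of all genes. With peaks per 10000 of the list only Mycl stayed under 0.05 unadjusted, beside 16.9% of all genes.

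Distal sites were regions merged from the 8 H3K27ac lists with no protein-coding start within 1 kb, and distances are from the nearest start of the member. The windows held 97 such sites of 30351 in the genome. Mxi1 had 23, Mxd1 17, Max 14, Mycl 10, Mnt 9, Myc 8, Mlx 7, Mga 6, Mycn 3 and Mxd4 0. Of the 97, 51 were called in 1 library only (52.6%, beside 57.4% of all distal regions), 36 of them in NICD replicate 1, and 0 in all 8. The share in 6 or more libraries was 6.19%, beside 6.08% of all distal regions, and 44.3% overlapped an H3K4me3 peak, beside 38.0%.

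**Figure D3:**
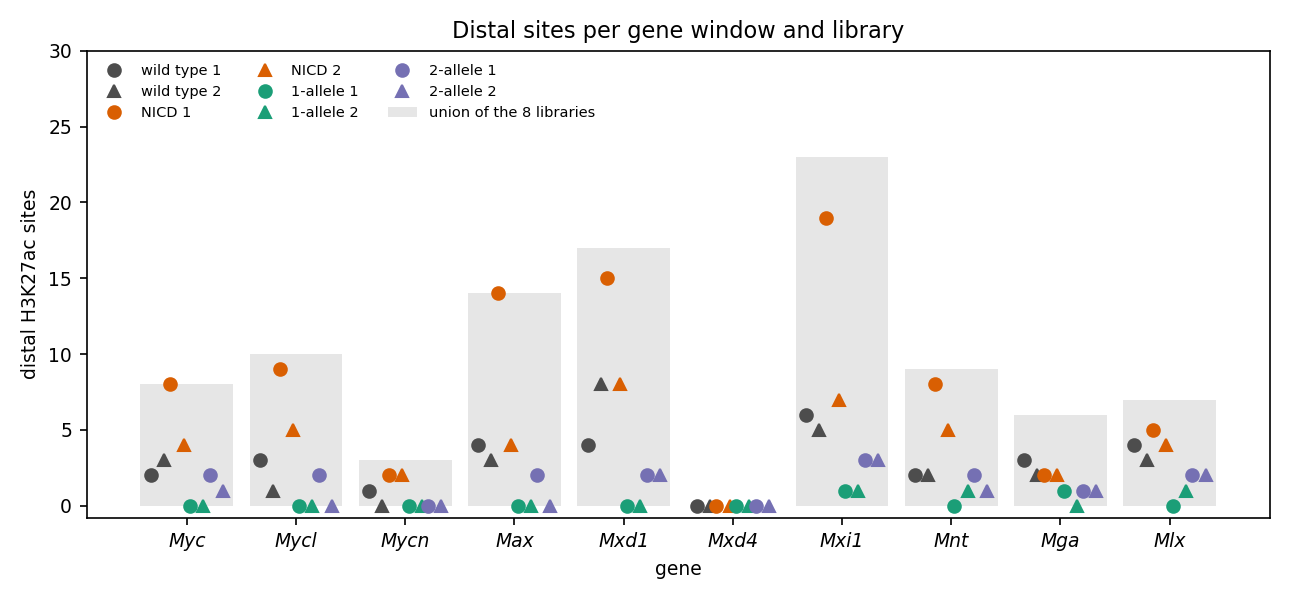
Distal H3K27ac sites per gene, with grey bars for the union over the 8 libraries and 1 marker per library. The NICD replicate 1 marker nearly fills the bar for Myc, Mycl, Max and Mxd1, and the 1-allele markers lie at 0 or 1 for every gene.

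For NICD over wild type there were 14 of the 97 sites (14.5% of all distal regions), 4 of them around Mnt, 3 around Mycl, 2 each around Mycn and Mxd1, and 1 each around Myc, Mxi1 and Mlx. For wild type over NICD there were 0 (0.689%). The members' share was 14.4%, at the background, so the network's distal sites did not stand apart from the rest of the genome here.

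For NICD over 1-allele there were 34 sites, a share of 35.1% beside 26.1% of all distal regions, and 0 the other way (0.105%). Mxd1 gave 8 of them, Mycl and Mnt 5 each, Myc, Max and Mxi1 4 each, and Mycn and Mlx 2 each. For 2-allele glands, 22 sites counted for NICD over 2-allele (22.7% beside 18.6%) and 0 the other way (0.102%), with 5 of them around Mxd1. Between the Arid1a groups, 5 counted for 2-allele over 1-allele (5.15% beside 3.87%), 2 around Mxi1 and 1 each around Myc, Mxd1 and Mnt, and 0 the other way (0.527%). Without the shallow NICD replicate 2 the counts against wild type, 1-allele and 2-allele glands were 51, 77 and 64, since NICD replicate 1 alone then stood for the group. Without 2-allele replicate 2 the count against 1-allele glands was 12. The shares of all distal regions with a library left out are not given here, so these counts have no background to be read against.

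**Figure D4:**
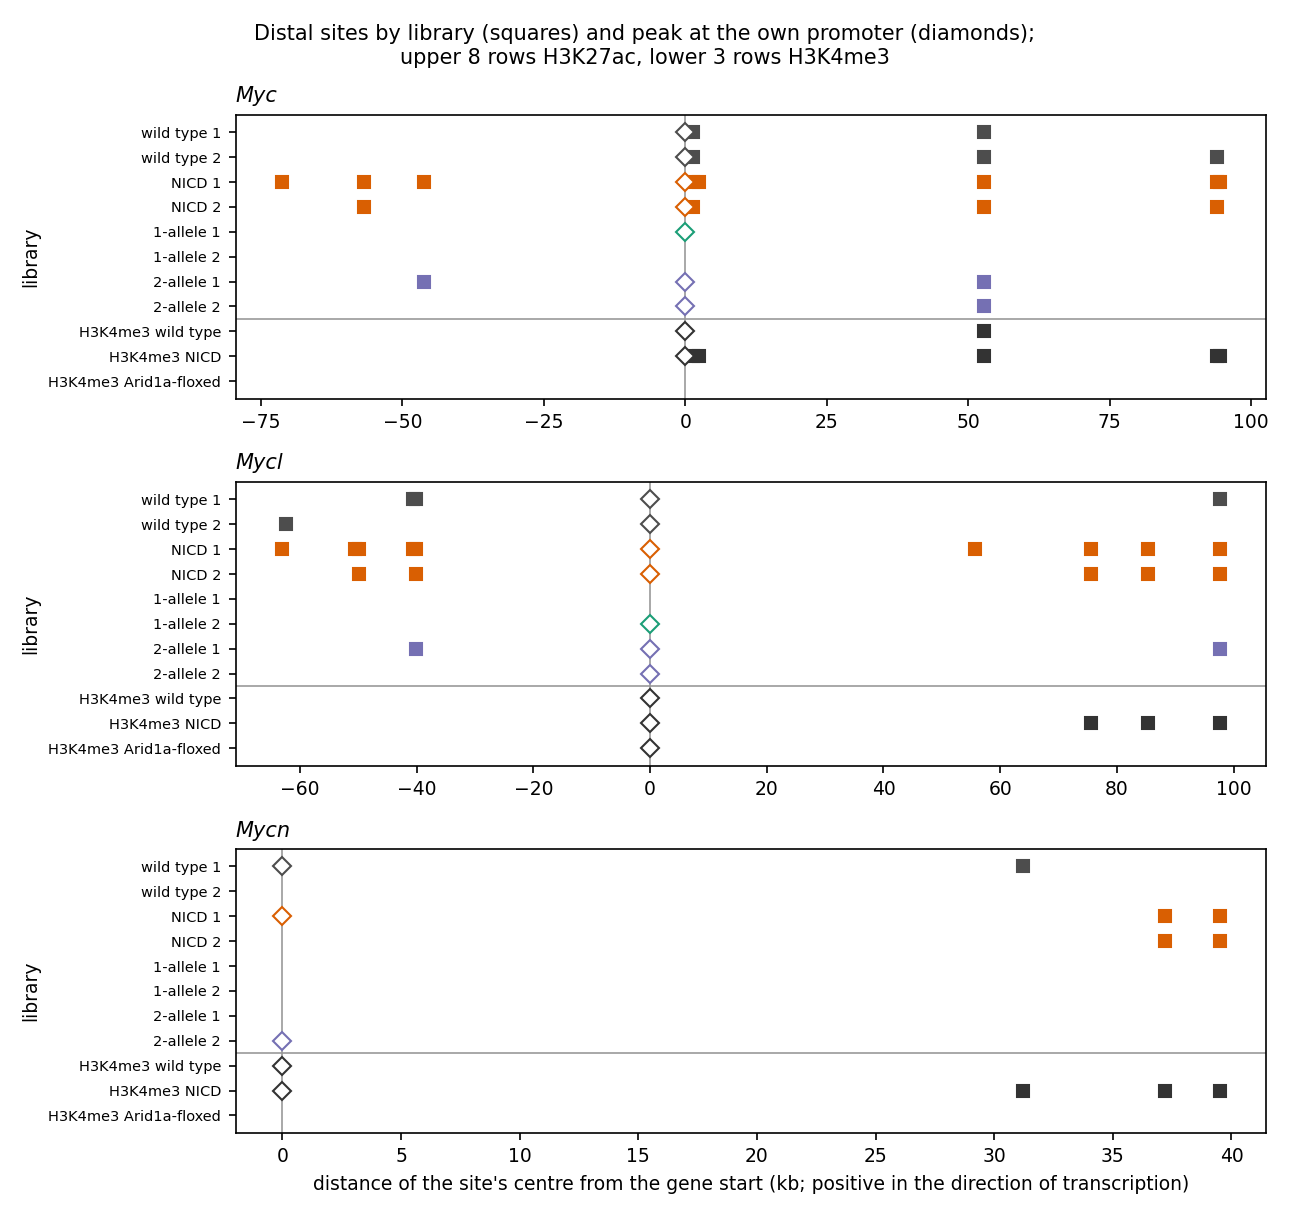
Distal sites (squares) and promoter peaks (diamonds) of Myc, Mycl and Mycn by library against distance from the gene start, with H3K27ac libraries above the line and H3K4me3 below. Around Myc 1 site at 52.7 kb is filled in 6 H3K27ac libraries, and the 1-allele rows hold no square.

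Around Myc, the most widely called distal site lay 52.7 kb past the start at an end of the noncoding RNA gene Pvt1 (chr15:62037600-62038431). It was called in all 6 wild type, NICD and 2-allele libraries, at percentile 59.4 and 14.8, 41.7 and 35.2, and 20.7 and 52.5, and in neither 1-allele library. H3K4me3 overlapped it in wild type and NICD. A site inside Myc, 1.4 kb past the start (chr15:61986463-61987070), was called in both wild type (16.9 and 40.2) and both NICD libraries (54.3 and 35.5) and in none of the other 4, and 1 farther inside Pvt1 at 94.0 kb (chr15:62079205-62079456) in wild type replicate 2 (17.0) and both NICD libraries (41.0 and 6.15). The site at the Pvt1 end was thus also called in 2-allele glands, and the site 1.4 kb past the start of Myc was not. The promoter peak of Myc, which also lay inside the gene body, was called in both 2-allele libraries.

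Around Mycl, the site at -40.1 kb from the start lay inside Mfsd2a (chr4:122955709-122955979) and was called in wild type replicate 1 (66.9), both NICD (61.1 and 42.8) and 2-allele replicate 1 (24.7). A site 97.6 kb past the start at an end of the noncoding gene Gm12923 (chr4:123093060-123093990) was called in the same 4 libraries, at 34.7, 81.9 and 36.6, and 38.0. No distal site of Mycl was called in both 2-allele libraries. Both sites around Mycn called in each NICD library, at 37.2 kb (chr12:12904465-12904847) and 39.5 kb (chr12:12902148-12902596), were called in no other H3K27ac library and overlapped H3K4me3 in NICD. Their percentiles in NICD were 30.7 and 39.8, and 37.0 and 11.1, in the lower part of both lists.

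**Figure D5:**
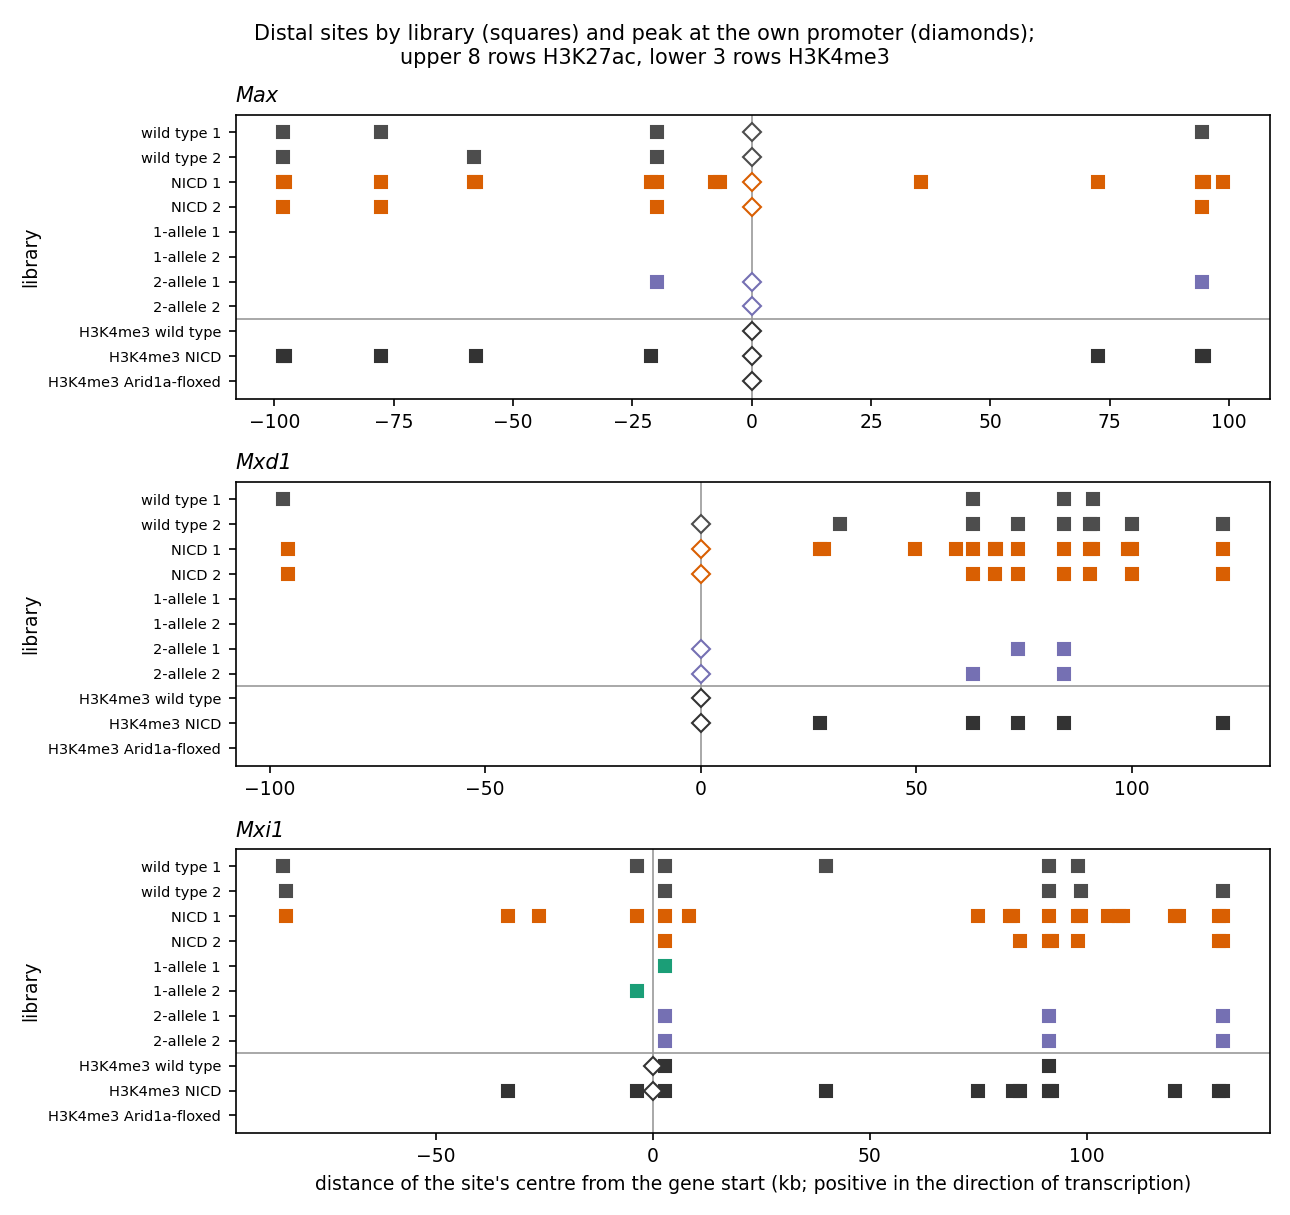
Distal sites (squares) and promoter peaks (diamonds) of Max, Mxd1 and Mxi1 by library against distance from the nearest gene start, drawn as for the activators. Of the 17 sites of Mxd1, 15 lie to the right of its start, and those of Mxi1 include 1 at 2.8 kb filled in 7 H3K27ac libraries.

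Around Max, a site at -19.8 kb from the start inside the noncoding gene Gm35041 (chr12:76981624-76982479) was called in both wild type (42.8 and 53.9), both NICD (76.9 and 73.1) and 2-allele replicate 1 (51.9). Max had 9 of its 14 sites in 1 library only, and NICD replicate 1 called all 14. Around Mxd1, 15 of the 17 sites lay past the start in the direction of transcription. The most widely called, at 84.3 kb (chr6:86584483-86585333), was called in wild type (70.6 and 79.4), NICD (65.3 and 55.6) and 2-allele glands (26.0 and 15.4). Sites at 73.7 kb (chr6:86595060-86595904) and at 63.1 kb inside Gm46963 (chr6:86605638-86606463) were called in 4 and 5 libraries, and the second stood at 83.1 and 72.9 in the NICD lists and at 29.1 and 23.0 in those of wild type. No distal site of Max or Mxd1 was called in a 1-allele library.

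Around Mxi1, a site 91.4 kb past the nearest start, outside any gene (chr19:53420738-53421519), was called in 6 libraries, at 44.4 and 60.8 in wild type, 66.3 and 22.0 in NICD and 32.6 and 23.4 in 2-allele glands. Another, 131.4 kb past it at an end of the noncoding gene 4833407H14Rik (chr19:53460602-53461503), was called in wild type replicate 2 (49.0), both NICD (85.4 and 76.8) and both 2-allele libraries (17.8 and 33.3). Both were missing from the 1-allele libraries. Mnt held a site within its own body 7.3 kb past the start (chr11:74837943-74838556) that was called in both NICD (66.2 and 44.7) and both 2-allele libraries (21.8 and 20.1) and in neither wild type nor 1-allele library. H3K4me3 overlapped this site in all 3 libraries for that mark, wild type included, and it was the only member distal site with H3K4me3 in the Arid1a-floxed library.

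Around Mlx, the site 51.4 kb past the start (chr11:101138339-101139075) was called in 7 libraries, all but 1-allele replicate 1, with percentiles of 77.1 and 25.6, 88.7 and 85.7, 28.9, and 76.8 and 18.0. It lay outside any annotated gene and overlapped H3K4me3 in wild type and NICD. A site at -34.6 kb from the start inside Atp6v0a1 (chr11:101052209-101053199), a proton pump subunit gene, was called in wild type (45.8 and 38.6), NICD (74.7 and 74.0) and 2-allele replicate 2 (26.1). Mxd4 had no distal site in any library, and all H3K27ac peaks in its window lay at gene starts.

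H3K4me3 peaks covered more of the members' promoters in NICD than in wild type. The bases of all peaks near a start were counted together, so the values are cover and not the width of 1 peak. Within 1 kb of the start, the median called member was covered over 403.5 bases in wild type and 1403 in NICD, beside 528 and 1133 for all called genes. The 2 libraries differ in list length and each stands for its group alone, so this has no replicate check.

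Further genes of the network and its partners were counted from lists by name. Of 3 other network genes, Mlxip, a partner of Mlx, was called in 7 H3K27ac libraries, all but 1-allele replicate 1, Mxd3 only in NICD replicate 1, and Mlxipl in 0, while H3K4me3 was called at all 3 in wild type and NICD. Of 14 Myc cofactors and regulators, 14 and 12 were called in wild type (44.8% and 42.6% of all genes), 14 and 14 in NICD (54.3% and 48.9%) and 13 and 14 in 2-allele libraries (44.4% and 42.7%). In 1-allele libraries 6 and 8 were called, or 42.9% and 57.1%, beside 17.2% and 27.1% of all genes. Of the 14, 5 counted for NICD over 1-allele (19.1% of all genes), among them Ruvbl1 and Ruvbl2, which encode helicases that bind Myc, Sin3a, a co-repressor of Mxd proteins, and Usp28, a deubiquitinase of Myc. For 2-allele over 1-allele (12.2%) there were 4, Ruvbl1, Ruvbl2, Usp28 and Wdr5.

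Of 24 known Myc target genes, 20 and 18 were called in wild type, 24 and 23 in NICD, 4 and 8 in 1-allele and 22 and 21 in 2-allele libraries. For NICD over wild type (3.8% of all genes) there were 3, Dkc1 and Polr1b of ribosome and RNA synthesis and Shmt2 of one-carbon metabolism. For NICD over 1-allele (19.1%) there were 13, among them Cad, Ddx18, Dkc1 and Fbl, and for 2-allele over 1-allele (12.2%) 12, among them Cad, Cdk4, Ddx18 and Fbl. For NICD over 2-allele (3.71%) there were 2, Npm1 and Shmt2. The 1-allele shares, 16.7% and 33.3%, lay near those of all genes (17.2% and 27.1%), while in the other 6 libraries 75% to 100% of the targets were called, beside 42.6% to 54.3% of all genes.

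The 3 genes outside its window whose promoter percentiles over the 8 H3K27ac libraries were most like those of Myc (mean absolute difference, 0 where not called) were Sdc1, at 4.02 percentile points, Colgalt1 at 4.89 and Lin54 at 5.12. All 3 were called in the 6 wild type, NICD and 2-allele libraries and in neither 1-allele library.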

How the data were processed

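Peaks were called by the authors, library by library, with MACS 2.0.10.20131216 and no control sample, 1 tag per position and a q threshold of 0.05, per the file headers; alignment with Bowtie2 to GRCm38 (mm10) is per the submitters' processing notes. Each of 9 deposited lists gives the fragment pileup at the summit (signal, per the file headers), −log10 p and −log10 q, and fold enrichment, a ratio to the local background of the same library. The 2 lists of 2-allele glands give positions only, were read as 0-based, and their depth and threshold are not given in the sources used here. The protocol names an antibody for H3K27ac; none for H3K4me3 is given in the sources used here.

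Gene starts came from the RefSeq promoter table for 17492 genes, from the gene end with H3K4me3 within 1 kb for 2581 (Myc among them), and from both ends for 1814. Peaks were joined by an overlap of at least 1 base. Work was done in Python 3.11.15 with numpy 2.4.6 and pandas 2.3.3, and the permutation test was tested on simulated data. All 10 members were named; distal sites were given by position for at most 3 per member, those called in the most H3K27ac libraries with ties broken by mean percentile, and at most 4 listed genes a comparison in alphabetical order. The members and lists were chosen with earlier results of these data known. Alternatives were list length, windows, start definition, score, overlap and leaving out each library. The leukocyte list is not reported as a whole here.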

Additional observations from a re-analysis of the deposited data

How the results depend on the processing

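Members under an unadjusted 0.05 in the window test numbered 5, beside 35.6% of all genes. There were 0 in lists of equal length (0.557% of all genes), 1 per 10000 peaks (16.9%) and 9 by covered base pairs (60.9%). By covered base pairs 5 also passed the adjusted threshold (42.5% of all genes), so the member counts moved with the share of all genes. With replicate number as a block there were 2 (13.7% of all genes), and the numbers share no animal or batch in the labels: differences between same-numbered libraries correlated across genes at -0.0261 to 0.0695 over 6 pairs of groups. Leaving out each library in turn gave 0 members adjusted in every case and 2 to 7 unadjusted, beside 15.4% to 43% of all genes. Lists of equal length gave promoter counts of 0 for NICD over 1-allele (2.33% of all genes) and 0 for 2-allele over 1-allele (2.81%). Only 5 member distal sites were left in such lists. Of these, 0, 1, 0 and 0 counted for NICD over wild type, 1-allele and 2-allele and for 2-allele over 1-allele. The shares of all distal regions in those lists were 3.64%, 4.21%, 4.98% and 2.14%. A promoter window of 2.5 kb gave 1 for NICD over wild type (3.95% of all genes) and 1 for NICD over 2-allele (4.03%). Leave-one-out ranges were 0 to 2, 5 to 6, 0 to 1 and 4 to 6 for promoters and 18 to 51, 35 to 77, 24 to 64 and 6 to 12 for distal sites, in that order. Beside the promoter ranges, the shares of all genes were 4.04% to 7.49%, 19.4% to 31.4%, 3.98% to 8% and 14.1% to 23.7%. For the distal ranges the shares of all distal regions are not given here. By fold enrichment the mean percentile of Mlx was 74.5 against 84.8, and by pileup that of Myc was 66.2 against 39.0. Of 86 alternatives, 63 stayed within 1.5 times or 1 SD. The cause was not tested. A threshold of −log10 q at least 5 was not run for comparisons with the 2-allele lists, which carry no scores.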
